A study of Mus musculus with 8 samples.

Results

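Pyrimidine salvage is the set of reactions by which cells reuse the bases and nucleosides of broken-down nucleic acid, and 10 of its enzyme genes were followed here across 8 arrays of mouse pro-B cells: Cda, Dctd, Dck, Tk1, Tk2, Uck1, Uck2, Upp1, Tymp and Dpyd. Every probe set whose platform annotation gives 1 of these symbols, and no other, was taken, which found 18 of the 45037 probe sets on the array and 9 of the 10 genes. Tymp is not analysed here because no probe set was annotated to its symbol alone. The group was chosen by measured values: Cda, its first member, was known to differ strongly between the 2 groups compared here, and the others were added as enzymes of the same route. The difference in Cda is therefore given as a description, and nothing is concluded from it or from the number of members that differ.

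Salvage enzymes work in steps. Kinases trap nucleosides inside the cell by adding a phosphate: TK1 (cytosol) and TK2 (mitochondria) act on thymidine, DCK on deoxycytidine and also on deoxyadenosine and deoxyguanosine, and UCK1 and UCK2 on uridine and cytidine. Cytidine deaminase (CDA) turns cytidine and deoxycytidine into uridine and deoxyuridine, and so competes with DCK and the uridine-cytidine kinases for its substrate, while DCTD deaminates the phosphorylated form, dCMP, to dUMP on the way to thymidylate. Uridine phosphorylase (UPP1) and thymidine phosphorylase (TYMP) split nucleosides into base and sugar phosphate, and DPYD starts the breakdown of uracil and thymine. Lymphocytes are known for strong dependence on salvage: DCK supports the proliferation of developing T and B cells, TK1 is produced mainly in S phase, and CDA is best known for inactivating cytidine analogues such as cytarabine and gemcitabine.

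The cells were Fraction B pro-B cells of mouse bone marrow, sorted as positive for B220, CD43 and HSA and negative for BP-1. Control mice carried floxed Men1 alleles and no Cre (MenF/F, 4 mice), and menin-deficient mice carried the same alleles with Rag1-cre (Rag1-cre;MenF/F, 4 mice), which is active in early lymphoid cells. Each mouse gave 1 array, and the labels give an age of 2 to 3 weeks and call the arrays biological replicates. Men1 encodes menin, a chromatin-bound partner of MLL histone methyltransferases, and the series asks which genes depend on it in B-cell progenitors. All mice carried the floxed alleles, and Cre was present in every menin-deficient mouse and in no control mouse, so what Cre does by itself and what follows from loss of menin cannot be told apart.

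Values are on a log2 scale, so 1 unit is a doubling, and the lowest value on the arrays is 2.08. Differences are menin-deficient minus control, with a standard error (SE) from limma, a linear model fitted to 11885 genes, each read from its brightest probe set. For the other probe sets of a gene, the SE comes from a second fit over all 45037 probe sets. A gene is called higher or lower where its Benjamini-Hochberg adjusted p is under 0.05. Precision is limited by the number of arrays, 4 per group. The brightest Men1 probe set lay at 9.19 to 9.81 in control arrays and at 7.85 to 8.50 in menin-deficient arrays, a difference of -1.39. Its place relative to the deleted part of the gene is not stated in the labels, so it may not check the deletion itself. Over all tested genes the median difference was 0.108 and 66.85% lay above 0. Removing such a shift of 0.1253 by centring changed the split of called genes from 75.8% higher to 48.4% higher, so small differences are read against it. Of 12 genes listed as B-lineage markers, 11 were measured, and their mean level was high in both groups, at 14.35 to 14.45 in control and 14.47 to 14.54 in menin-deficient arrays. Igll1 (0.38, limma adjusted p = 0.0457), Dntt (0.35, 0.00442) and Blnk (0.39, 0.0466) were called higher and Rag1 (-0.28, 0.0326) lower. Only menin-deficient mice carried Rag1-cre, so the Rag1 difference cannot be told apart from an effect of that allele. After centring 1 of the 11 B-lineage markers was called higher and 1 lower. Over all tested genes 16.2% were called higher and 5.17% lower before centring. After centring, 911 of the 11885 were called higher and 971 lower. Xist, expressed from the inactive X chromosome of females, was near the lowest value in control 3 and in menin-deficient 1 and 2, so the groups differ in their numbers of males.

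Cda was the only member that was called. Its single probe set, 1427357_at, read 2.77, 2.94, 2.87 and 2.97 in control arrays 1 to 4. In menin-deficient arrays 1 to 4 it read 6.08, 6.39, 5.67 and 5.81. The groups were far apart: the lowest menin-deficient array stood well above the highest control array, and the arrays of each group lay close together. Means were 2.89 ± 0.0912 and 5.99 ± 0.318 (SD, n = 4 each), a difference of 3.10 (SE 0.154), or 8.56-fold. Control values sat near the floor of 2.08, where the scale is compressed, so the fold is approximate. In menin-deficient cells Cda still lay below the 60th percentile of every array, that is, below 6.52 to 6.76, so the transcript went from near background to a modest signal. In bulk RNA, more cells that express a gene and more RNA per cell cannot be told apart.

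**Figure D1:**
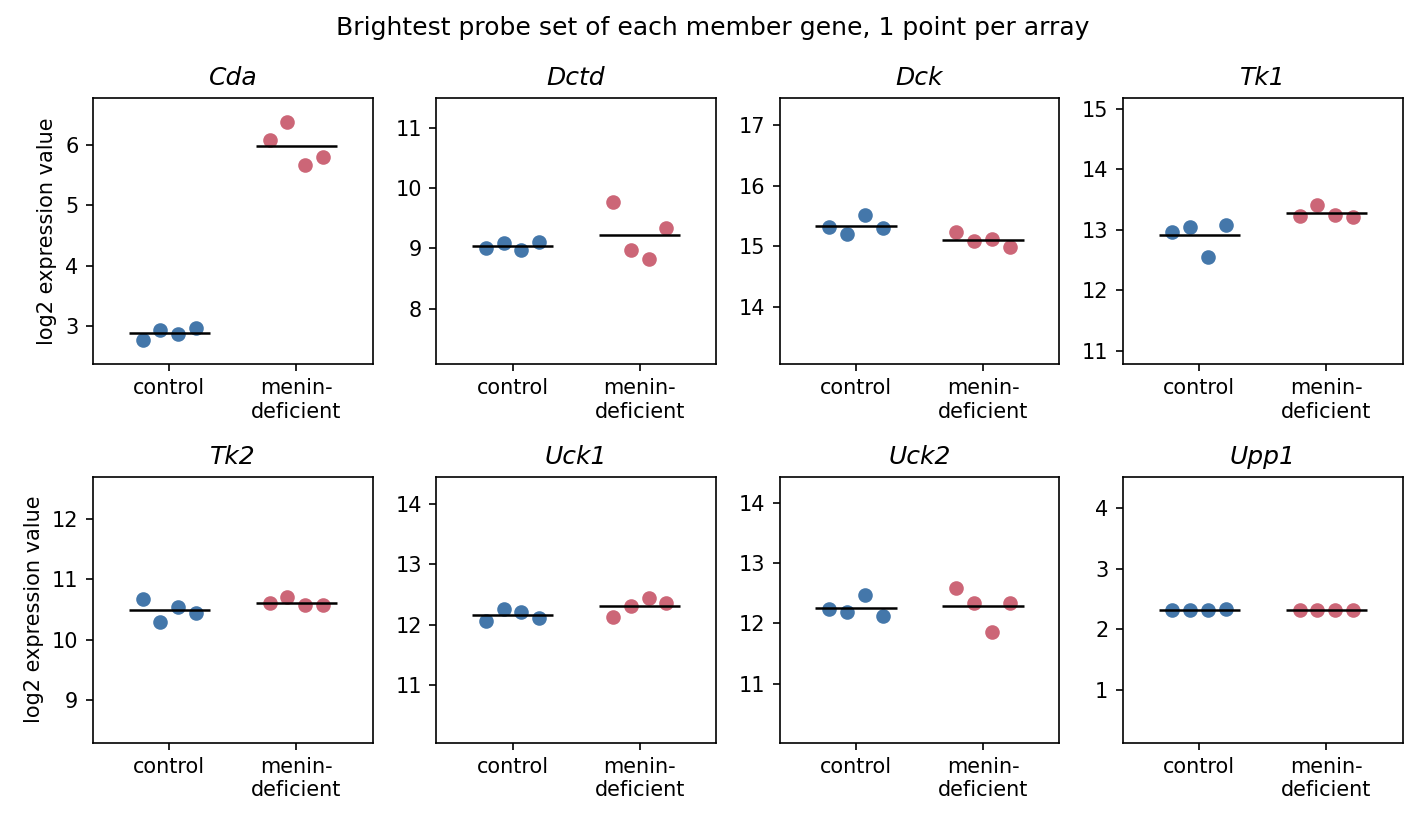
Log2 expression (y axis) of the brightest probe set of each tested gene on every array, with control arrays in blue, menin-deficient arrays in red and a line for the group mean; all panels span the same 4.4 log2 units. Cda lies at 2.77 to 2.97 in control arrays and 5.67 to 6.39 in menin-deficient arrays, while the points of the other genes lie close together at this scale.

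The window upstream of each start is shown for Cda, the only member called, and for Tk1, the only other member whose groups did not overlap. Both are 250 bases up to the start site in RefSeq (GRCm38.p6), read 5′ to 3′ on the minus strand, with CG dinucleotides in capitals; Cda lies at chr4:138367956-138368205 and Tk1 at chr11:117826015-117826264.
Cda: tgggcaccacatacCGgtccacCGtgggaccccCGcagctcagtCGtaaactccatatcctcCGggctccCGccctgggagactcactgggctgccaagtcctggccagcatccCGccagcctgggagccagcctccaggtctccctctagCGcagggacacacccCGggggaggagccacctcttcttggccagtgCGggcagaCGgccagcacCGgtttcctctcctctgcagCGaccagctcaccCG
Tk1: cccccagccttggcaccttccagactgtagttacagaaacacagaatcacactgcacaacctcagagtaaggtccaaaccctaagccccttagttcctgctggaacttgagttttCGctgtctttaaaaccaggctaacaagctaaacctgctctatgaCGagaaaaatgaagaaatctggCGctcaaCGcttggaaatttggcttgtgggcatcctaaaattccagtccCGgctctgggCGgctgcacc
The Cda window holds 14 CG dinucleotides, more than 70.6% of all 32851 windows of this length, and the Tk1 window holds 6, which is also the median of all windows (quartiles 2 and 16). Across the 15 windows of the 10 salvage genes the number ran from 4 in a Dctd window to 21 in Uck2. On either strand, the letters GGGCGG, a core that Sp1-family factors can bind, occurred in 10 of the 15 windows, those of Cda and Tk1 included, and in 32.7% of all windows. Some windows of the same gene overlap, as in Dctd and Upp1, so the windows are not separate sequences. Counted by gene, GGGCGG occurred in 8 of the 10. CCAAT occurred in 3 of the 15 windows, of Dctd and Tymp, and in 33.8% of all windows. TATAAA occurred in 0 of the 15 windows and in 12.4% of all windows. A match describes letters only.

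Markers of other cell types were read beside Cda, and their lists did not all move in 1 direction. Array means of the T cell, NK cell and plasmacytoid dendritic cell lists were higher in menin-deficient arrays without overlap. This was not particular to them, since the B-lineage list was also higher without overlap. So was the median of all tested genes, at 10.09 to 10.17 in control and 10.24 to 10.29 in menin-deficient arrays. Array means of the neutrophil, monocyte and macrophage, and erythroid lists overlapped. Those of the plasma cell list were only just lower, with a lowest control mean of 10.596 and a highest menin-deficient mean of 10.592. Genes of that list went both ways. Of 11 genes listed as T cell markers, 9 were measured, with a mean level of 4.45 to 4.59 in control and 5.24 to 5.37 in menin-deficient arrays, and 4 of the 5 that could be tested were called higher (Thy1, Lat, Cd5 and Cd3g). Within that list Cd3d, Cd3e, Cd4 and Cd8b1 were at or near the lowest value on every array, while Cd3g averaged 3.95 in control and 4.73 in menin-deficient arrays and Cd8a 5.54 and 5.87. NK cell markers (9 measured) had a mean of 5.60 to 5.91 against 6.23 to 6.86, with 3 of 8 called higher (Nkg7, Gzmb and Ncr1), and Il2rb was near the lowest value. Plasmacytoid dendritic cell markers (10 measured) had a mean of 7.53 to 7.76 against 7.94 to 8.27, with 1 of 10 called higher (Ccr9) and Tlr9 near the lowest value. Monocyte and macrophage markers (11 measured) had a mean of 6.72 to 7.11 against 6.81 to 7.82, with 3 of 11 called higher (Lyz2, Ccr2 and Cd68). Lyz2 (limma adjusted p = 0.0422) and Cd68 (limma adjusted p = 0.0491, groups overlapping) were near the threshold. Neutrophil markers, of which 12 were measured, had a mean of 8.29 to 8.67 against 8.43 to 9.30, with 0 of 11 called. Csf3r and Cxcr2 were near the lowest value, while granule genes such as Camp (13.0 in control, 13.4 in menin-deficient arrays) and Mpo (12.2 and 12.5) read high in both groups. Erythroid markers (6 measured) had a mean of 6.21 to 6.97 against 6.01 to 6.85, with 0 of 5 called. Plasma cell markers (6 measured) had a mean of 10.6 to 11.1 against 10.3 to 10.6, with Mzb1 called higher and Sdc1 and Jchain lower. Over all tested genes 16.2% were called higher and 5.17% lower. After centring, 3 T cell, 3 NK cell, 1 plasmacytoid dendritic cell and 1 monocyte and macrophage marker were called higher. Of the plasma cell markers, 0 were then higher and 2 lower. The part of these cell types in the Cda difference was not tested.

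The genes beside Cda on chromosome 4 did not share its size of change. The 3 nearest tested genes on one side were Kif17, Ddost and Pink1. Kif17, a kinesin motor gene, was 0.69 higher (SE 0.139, limma adjusted p = 0.0158), with 0.76 and 0.038 on the remaining probe sets. Ddost, a subunit of the oligosaccharyltransferase, was 0.31 higher (SE 0.0788, limma adjusted p = 0.0314). That call was lost after centring (0.19, adjusted p 0.206), after quantile normalization (0.26, adjusted p 0.0697) and without the filter on low values (adjusted p 0.0595). It was also lost when control 1 or 4 or any 1 menin-deficient array was left out (differences of 0.28 to 0.33, adjusted p 0.0538 to 0.0847). Pink1, a mitochondrial kinase gene, differed by 0.036 with overlapping groups. On the other side, Mul1, a mitochondrial ubiquitin ligase gene, fell by 0.98 (SE 0.124, limma adjusted p = 0.00391), while its other probe set, 1434118_at, differed by 0.23. Camk2n1 and Pla2g2d lay near the lowest value in all arrays.

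Across the 8 arrays, the 5 tested genes with values most like those of Cda were Rps6ka6 (Pearson r = 0.996), 2810025M15Rik (0.994), Zc2hc1a (0.992), Supt3 (0.992) and Klk8 (0.992). Their differences were 5.22, 1.11, 0.74, 0.71 and 1.75. These r values are over 8 arrays in 2 well-separated groups, which any gene with a large group difference shares, so they carry little beyond that difference.

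Dctd, the dCMP deaminase, gave no such separation. Its probe set 1454659_at read 9.003, 9.097, 8.981 and 9.098 in control arrays 1 to 4 and 9.760, 8.977, 8.818 and 9.345 in menin-deficient arrays 1 to 4. Menin-deficient 1 was highest and menin-deficient 3 lowest of all arrays, so the control values lay inside the menin-deficient range. Means were 9.04 ± 0.0616 and 9.22 ± 0.420 (SD, n = 4 each), a difference of 0.18 (SE 0.196) that was not called. The 2 deaminases of the set therefore gave differences of 3.10 and 0.18.

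Tk1, the S-phase thymidine kinase, was higher in every menin-deficient array than in any control array. Probe set 1416258_at read 12.96, 13.05, 12.55 and 13.08 in control arrays 1 to 4 and 13.23, 13.41, 13.24 and 13.21 in menin-deficient arrays 1 to 4. Control 3 was the lowest array by a wide margin, and the other control arrays lay just below the menin-deficient ones. The difference was 0.37 (SE 0.124), or 1.29-fold, and was not called. Without control 3 it was 0.25 and was called, and after centring on the median gene it was 0.24 and was not. Groups that do not overlap in the higher direction were seen for 20.3% of all tested genes, so this pattern is common in these data. The 5 genes most like Tk1 over the 8 arrays were Kri1 (r = 0.987), Mkrn2 (0.985), Sumo3 (0.977), Parp2 (0.973) and Cops6 (0.972). Each was lowest in control 3, as Tk1 was, and differed between groups by 0.18 to 0.47 without being called.

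Dck, the deoxycytidine kinase, was read by 3 probe sets whose group differences were not of 1 sign. The brightest, 1439012_a_at, read 15.32, 15.21, 15.52 and 15.30 in control arrays and 15.23, 15.09, 15.13 and 14.98 in menin-deficient arrays. Menin-deficient 1 lay above control 2, so the groups overlapped slightly, and the difference of -0.23 (SE 0.0818) was not called. It was called lower after centring (-0.35), with array weights (-0.24) and with Xist as a covariate (-0.27). Probe set 1449176_a_at differed by -0.029 (SE 0.0655). The third, 1428838_a_at, was far more variable, from 10.26 in control 2 to 11.97 in menin-deficient 2, and differed by 0.38 (SE 0.351). Over the 8 arrays 1449176_a_at had r = 0.63 with the brightest and 0.54 with 1428838_a_at, while the brightest and 1428838_a_at had r = -0.11. The mean of the 3 probe sets differed by 0.042, so the direction of Dck depends on which probe set is read.

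Tk2, the mitochondrial thymidine kinase, read 10.68, 10.29, 10.54 and 10.44 in control arrays and 10.61, 10.70, 10.57 and 10.57 in menin-deficient arrays. Control 1 lay within the menin-deficient range and the other 3 control arrays below it. The difference of 0.12 (SE 0.0849) was not called and became -0.0036 after centring. Across the 8 arrays, the brightest Dck probe set and Tk1 ran opposite ways (r = -0.87, and -0.70 for deviations from group means). Control 3 was the highest array for that Dck probe set (15.52) and the lowest for Tk1 (12.55). The other Dck probe sets were not compared with Tk1, so this is not a result for Dck as a gene. Cda and Tk1 had r = 0.78, but 0.37 once group means were removed. These r are descriptions over arrays that also share depth of signal and group.

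**Figure D2:**
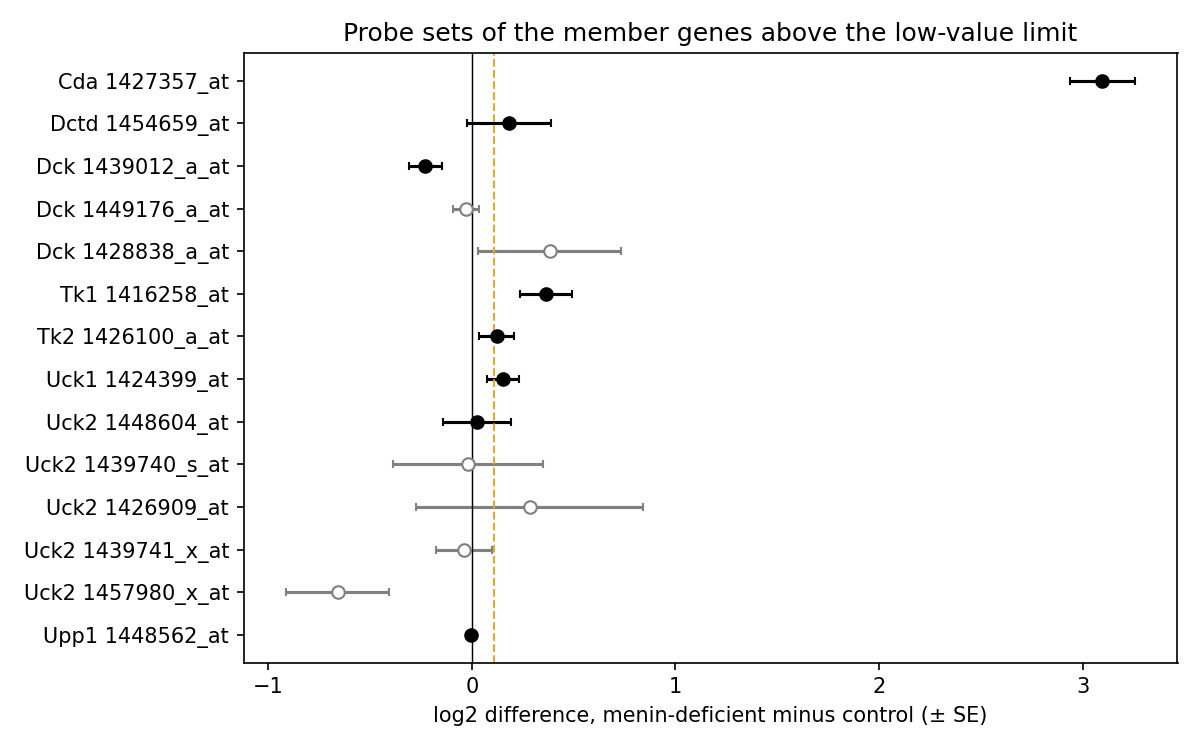
Log2 difference, menin-deficient minus control (x axis), for every kept probe set of the salvage genes; black points are the brightest probe set of a gene, open gray points its others, bars 1 SE from a fit of all 45037 probe sets, and the dashed line the median of all tested genes (0.108). Cda stands at 3.10, and the other points lie between -0.66 and 0.38.

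The uridine-cytidine kinases showed no called difference. Uck1 read 12.05, 12.26, 12.20 and 12.11 in control arrays and 12.13, 12.31, 12.44 and 12.35 in menin-deficient arrays, with menin-deficient 1 inside the control range. The difference was 0.15 (SE 0.0779). The brightest Uck2 probe set, 1448604_at, read 12.24, 12.19, 12.47 and 12.13 in control arrays and 12.59, 12.34, 11.86 and 12.33 in menin-deficient arrays. Menin-deficient arrays held both the highest and the lowest value, and the difference was 0.026 (SE 0.158).

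Uck2 was measured by 6 probe sets, which differed from each other both over the arrays and in their group differences. Probe set 1426909_at read 7.71, 9.66, 8.36 and 8.02 in control arrays and 8.60, 8.12, 9.82 and 8.33 in menin-deficient arrays, a range of 2.11. Control 2 and menin-deficient 3 were high, each in a different group. Probe set 1439740_s_at read 10.34, 11.63, 10.85 and 10.44 in control arrays and 10.89, 10.27, 11.41 and 10.61 in menin-deficient arrays, with the same 2 arrays on top. Over 8 arrays these 2 probe sets had r = 0.95, whereas 1448604_at had r = -0.34 with 1439740_s_at and r = -0.48 with 1426909_at. Their differences between groups were 0.28 (SE 0.557) for 1426909_at and -0.021 (SE 0.368) for 1439740_s_at. Probe set 1457980_x_at, whose suffix marks probes that can match other transcripts, differed by -0.66 (SE 0.254) with overlapping groups. Probe set 1439741_x_at differed by -0.037 (SE 0.137), and 1417137_at was at 2.08 on every array. Which probe set follows the Uck2 transcript was not tested.

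**Figure D3:**
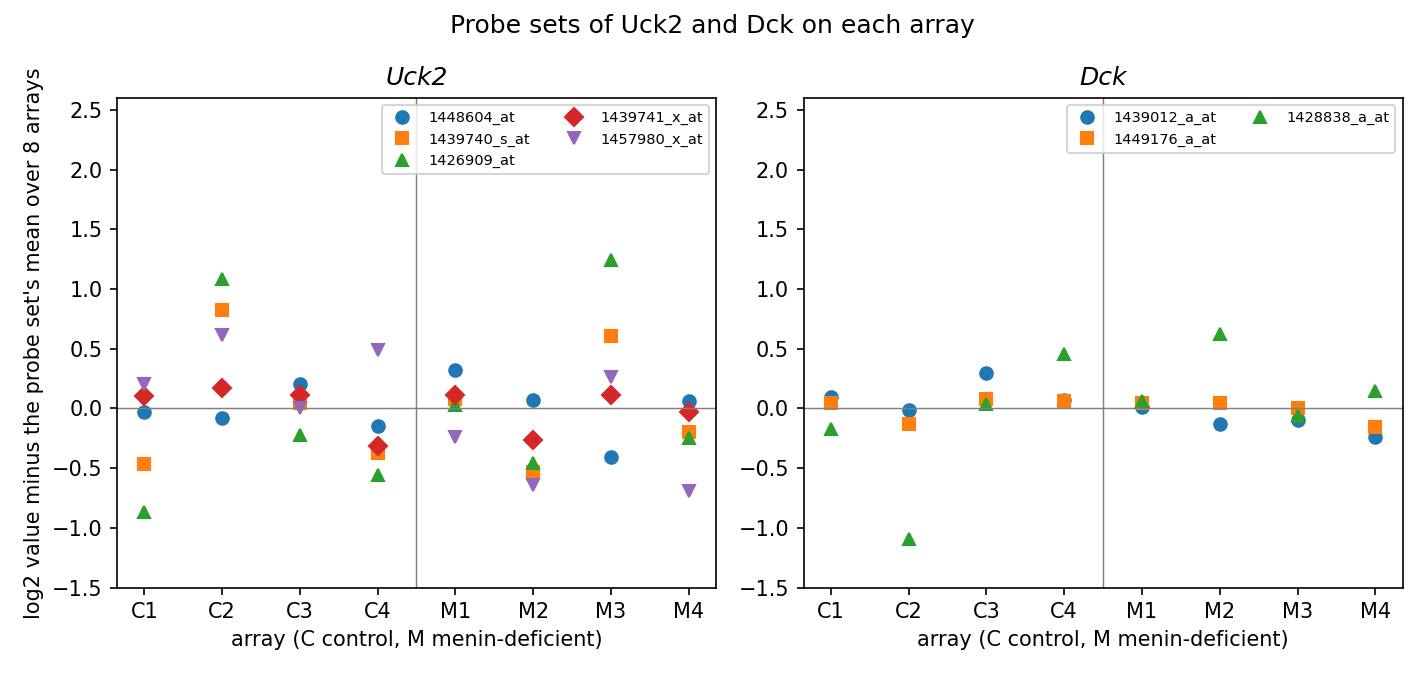
Log2 value of each Uck2 and Dck probe set minus its own mean over the 8 arrays (y axis), by array (x axis; C1 to C4 control, M1 to M4 menin-deficient), 1 symbol per probe set. For Uck2, 1426909_at and 1439740_s_at are high in C2 and M3, and for Dck, 1428838_a_at is low in C2 (10.26) and high in M2 (11.97).

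The phosphorylase and breakdown genes gave almost no signal. Upp1 lay at 2.32 to 2.33 on all 8 arrays. It passed the filter on low values, but with a spread of only 0.0126 its difference of -0.0022 describes background. Dpyd was read by 3 probe sets, all at 2.08 on every array except for 2.27 in control 3 on 1427945_at, and it was not tested. A value at the floor of an array does not show that a transcript is absent.

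In all, 14 of the 18 probe sets passed the filter on low values and 8 of the 10 genes could be tested. Of those 8, 1 was called higher (Cda) and 0 lower. Among all 11885 tested genes 21.3% were called, 16.2% higher and 5.17% lower. Since Cda was selected on this comparison, nothing is read from the count.

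Around the salvage genes, 9 lists of related genes hold 92 genes, of which 75 could be tested. Of these, 12 rose (16.0%) and 5 fell (6.7%), with a median difference of 0.095 against 0.108 over all genes. After centring 5 were called higher and 8 lower, against 911 and 971 of all 11885 tested genes. The shares before centring lie close to those of all genes. Each list holds few genes, and its counts are to be set against 16.2% higher and 5.17% lower over all genes. Without the filter on low values, the calls given next for Samhd1, Nme4, Uckl1, Dguok, Ampd2 and Ccne2 were lost (adjusted p 0.0665 to 0.0906).

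Genes that make pyrimidines anew showed no called change. Of the 5 tested genes of de novo synthesis and CTP synthesis, 0 were called (median difference -0.047). Ctps, a CTP synthase, differed by -0.047 (SE 0.0811), and Ctps2, the second CTP synthase, by 0.32 (SE 0.115, limma adjusted p = 0.091). Of 10 thymidylate and deoxynucleotide genes, 1 fell (median -0.054). The gene that fell was Samhd1, which breaks down deoxynucleoside triphosphates. It read 12.30, 11.89, 11.68 and 12.20 in control arrays and 11.31, 11.49, 11.54 and 11.57 in menin-deficient arrays, with every menin-deficient array below every control array. The difference was -0.54 (SE 0.145, limma adjusted p = 0.0395), and its 4 other probe sets differed by -0.28 to -1.47. The call was lost when any array but control 3 was left out (differences of -0.44 to -0.58, adjusted p 0.0577 to 0.0924). Dut, which removes dUTP, differed by 0.015 (SE 0.0507), and Rrm2, a subunit of ribonucleotide reductase, by -0.045 (SE 0.0948).

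Among 8 pyrimidine nucleotide kinases, which carry salvage products on to the triphosphates, 2 rose and 0 fell (median 0.25). Dtymk, the thymidylate kinase that follows TK1 and TK2, rose by 0.27 (SE 0.0545, limma adjusted p = 0.0166), while the remaining probe sets gave -0.17 and 0.28. Nme4, a mitochondrial nucleoside diphosphate kinase, rose by 0.65 (SE 0.161, limma adjusted p = 0.0309). Its call was lost without control 1, 3 or 4 or menin-deficient 1, 2 or 4 (differences of 0.57 to 0.66, adjusted p 0.0645 to 0.0808). After centring 0 of the 8 were called.

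Of 6 other tested salvage and breakdown genes, 2 rose (median 0.30), or 1 after centring. Pgm2, which converts deoxyribose and ribose phosphates released by the phosphorylases, read 10.1 in each control array and 10.6 to 10.9 in menin-deficient arrays. It rose by 0.66 (SE 0.0604, limma adjusted p = 0.0016). Uckl1, a homologue of the uridine-cytidine kinases, rose by 0.40 (SE 0.101, limma adjusted p = 0.0325). Its call was lost after centring (0.27, adjusted p 0.111), after quantile normalization (0.33, adjusted p 0.0662), and without any 1 control array or menin-deficient 2 or 4 (differences of 0.38 to 0.42, adjusted p 0.0563 to 0.0767). Nucleotidases remove phosphate again. Of 7 tested genes listed under that name, a list that also holds Nudt18, 2 rose (median 0.22), or 1 after centring. Nt5c3b rose by 0.50 (SE 0.0887, limma adjusted p = 0.0107) and mitochondrial Nt5m by 0.40 (SE 0.0841, limma adjusted p = 0.0178). The other Nt5c3b probe sets differed by 0.25 and -0.21, and the mean of its probe sets by 0.18 (adjusted p 0.24). The Nt5m call was lost after centring (0.27, adjusted p 0.103) and without menin-deficient 2 (0.39, adjusted p 0.0544).

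Among 3 tested nucleoside transporters, which bring the substrates of salvage across membranes, 2 rose, or 1 after centring. Over all tested genes 16.2% were called higher before centring, and 3 genes are too few to read a share from. Slc29a3 went from 9.17 ± 0.128 to 9.79 ± 0.116 (SD, n = 4 each), a rise of 0.62 (SE 0.0837, limma adjusted p = 0.00493). Slc29a1 rose by 0.52 (SE 0.105, limma adjusted p = 0.0156), which centring reduced to 0.40 and an adjusted p of 0.0512. Slc29a2 lay near the floor, and its difference was -0.095.

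Of the genes listed as cytidine and adenosine deaminases acting on nucleic acid, which include relatives of CDA, 8 were tested. Of these, 1 rose and 1 fell (median -0.096), or 1 and 2 after centring. A place in this list does not show that the product, APOBEC2 included, is an active deaminase. Apobec2 read 7.01, 7.34, 7.94 and 7.79 in control arrays and 9.77, 10.02, 9.93 and 9.09 in menin-deficient arrays. Every menin-deficient array lay above every control array, a rise of 2.18 (SE 0.275, limma adjusted p = 0.00391) or 4.53-fold. Its second probe set, 1444348_at, did not follow, with a difference of -0.33. Apobec1, the RNA editor of apolipoprotein B transcripts, read 12.56, 12.31, 12.42 and 12.65 in control arrays and 11.40, 11.52, 11.90 and 11.68 in menin-deficient arrays. Those groups did not overlap either, and the difference was -0.86 (SE 0.124, limma adjusted p = 0.00572), or 1.81-fold lower. Adat2, a tRNA adenosine deaminase, differed by 0.56 (SE 0.361) with overlapping groups and was not called.

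Purine salvage, the parallel route, had 2 genes higher and 1 lower of 10 tested (median 0.19), or 1 higher and 1 lower after centring. Ada, which deaminates adenosine and deoxyadenosine and protects lymphocytes from the latter, read 12.65, 12.67, 12.56 and 12.56 in control arrays and 13.73, 13.61, 13.47 and 13.26 in menin-deficient arrays. All menin-deficient arrays were higher, and the rise was 0.91 (SE 0.101, limma adjusted p = 0.00265), or 1.87-fold. Dguok, the mitochondrial deoxyguanosine kinase, rose by 0.30 (SE 0.0843, limma adjusted p = 0.0433). Its call was lost after centring (0.18, adjusted p 0.19), after quantile normalization (0.24, adjusted p 0.0833), and when any 1 array but menin-deficient 1 was left out (differences of 0.25 to 0.33, adjusted p 0.0695 to 0.11). Ampd2, an AMP deaminase, was called lower at -0.58 on an _x_at probe set, but differed by 0.31 on its other probe set. Its call was also lost without any 1 control array or menin-deficient 2 or 4 (differences of -0.45 to -0.63, adjusted p 0.0654 to 0.0991).

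Because Tk1 follows S phase, 18 genes of DNA replication were read beside it, and 1 was called higher and 2 lower (median 0.084), or 0 higher and 3 lower after centring. Gins2, of the replicative helicase, rose by 0.47 (SE 0.0852, limma adjusted p = 0.0112), and after centring by 0.35 with an adjusted p of 0.0569. Ccne2, cyclin E2, fell by 0.58 (SE 0.148, limma adjusted p = 0.0326), a call lost without control 1, 2 or 4 or menin-deficient 2, 3 or 4 (differences of -0.51 to -0.59, adjusted p 0.0692 to 0.0868). Mcm5 was called lower at -0.20 on an _x_at probe set, while its other probe sets differed by 0.16 and 0.039. Pcna, the replication clamp, differed by 0.10 (SE 0.0598) and was not called.

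**Figure D4:**
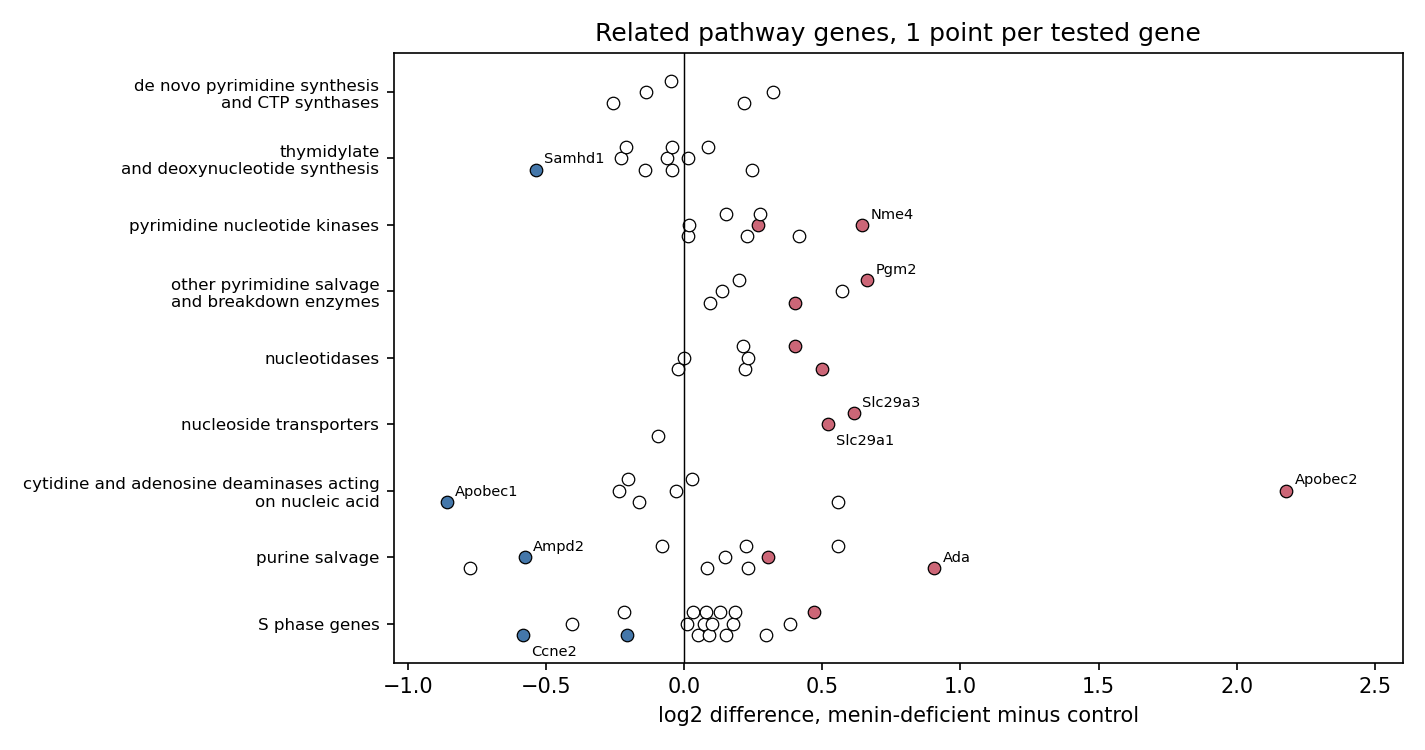
Log2 difference, menin-deficient minus control (x axis), for each of the 75 tested genes of the 9 related lists (y axis), 1 point per gene; red points were called higher, blue points lower and white points not called, and called genes beyond 0.5 are named. Apobec2 (2.18) and Ada (0.91) lie farthest to the right and Apobec1 (-0.86) farthest to the left.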

How the data were processed

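Per the labels, RNA of the sorted cells was amplified once, labelled with biotin and measured on Affymetrix mouse arrays covering the genome. The deposited log2 values of 45037 probe sets (64 manufacturer's controls aside) run from 2.08 to 17.4, which is how the scale was judged. The submitters' processing notes name 2 methods without a version, MAS5 and GCRMA; no label says which one gave the deposited log2 scale.

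Probe sets with 1 platform symbol were kept (22200) where 4 or more of the 8 arrays read above their own 40th percentile, and each of 11885 genes was read from its brightest probe set. Groups came from the sample titles. The model used limma 3.58.1 (lmFit, then eBayes) in R 4.3.3, with data.table at version 1.17.8, Benjamini-Hochberg adjustment and a threshold of 0.05. The fit was tested on simulated data. Promoter windows came from RefSeq (GRCm38.p6), which holds windows of all 10 genes. They were read with pandas 2.3.3 in Python 3.11.15, and plots were drawn with matplotlib 3.10.9.

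The members, the 9 related gene lists and the 8 marker lists were chosen with earlier results of these data known. Genes named are the members, in each related list the called genes and up to 2 more with the highest mean, the 5 genes most like Cda and Tk1, and the 3 tested genes on each side of Cda; the text gives a selection. Called marker genes were named after their values were seen. The 20 alternatives were a further quantile normalization, centring, filters at the 60th percentile or none, probe sets averaged per gene or fitted singly, no _x_at or _s_at probe sets, eBayes with trend and robust settings, array weights, a replicate block, Xist as a covariate, a threshold of 0.10 and leaving out each array. Log2 values need no pseudocount.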

Additional observations from a re-analysis of the deposited data

Results flagged for a closer look

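By Dixon's test at 95%, 5 of the 28 groups tested (each salvage probe set in each genotype) had 1 array far from its 3 fellows, where chance gives about 1 in 20. Tk1 in menin-deficient 2 read 13.414, above 13.212 to 13.242 in the others. Dck probe set 1449176_a_at in control 2 read 13.405, below 13.574 to 13.609. Uck2 probe set 1439741_x_at in control 4 read 5.4563, below 5.8749 to 5.9354. Upp1 read 2.33 in control 4 and 2.3211 in menin-deficient 3 against 2.3174 on the other arrays of each group, where identical background values make any departure stand out.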

How the results depend on the processing

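Cda was called higher, by 2.96 to 3.20, under each of the 19 alternatives that kept it, and the 60th percentile filter removed it. Because Cda was selected on this comparison, these calls are a description and not support. Some could not have come out otherwise: its single probe set gives the same difference however probe sets are combined, and a threshold of 0.10 cannot lose a call. The count of salvage genes called higher was 1, but 0 with that filter, 2 with array weights or a threshold of 0.10, and 1 to 2 on leaving out each array (2 without control 3); the count called lower was 0, but 1 after centring, with array weights, with Xist as a covariate or at 0.10. Over all genes 2536 were called, 1673 without the filter and 1413 to 2269 on leaving out each array (1622 without control 1, 1413 without menin-deficient 2). Same-numbered arrays did not deviate together (r from -0.31 to 0.046), so the numbers pair nothing; with the replicate block 1328 genes were called, and still 1 salvage gene higher and 0 lower. Over 8 salvage genes, 142 of 158 recomputed differences kept direction and side of the threshold, 7 newly passed it and 9 reversed. Over 28 other genes, 456 of 557 kept both, 82 fell short, 1 newly passed and 18 reversed. These counts do not measure stability. The 2 changes of filter, probe sets fitted singly, trended and robust eBayes, the replicate block and the threshold of 0.10 left the differences themselves unchanged. Genes not called in the main fit could not lose a call. Reversed values after quantile normalization were -0.029 for Dut, -0.019 for Pink1 and -0.039 for Uck2, and after centring -0.11 for Dut, -0.089 for Pink1, -0.099 for Uck2, -0.0036 for Tk2 and -0.061 for Camk2n1. With the mean of probe sets they were -0.055 for Pink1, -0.081 for Uck2, 0.042 for Dck and 0.022 for Rrm2, with Xist as a covariate -0.0015 for Dut and -0.062 for Uck2, with array weights 0.00058 for Rrm2, and without _x_at and _s_at probe sets 0.16 for Mcm5 and 0.31 for Ampd2. Leaving out each array gave -0.0084 to 0.053 for Dut, -0.12 to 0.10 for Pink1, -0.078 to 0.17 for Uck2, -0.081 to 0.048 for Rrm2, -0.0033 to 0.00091 for Upp1 and -0.085 to 0.034 for Ctps. The cause of these reversals was not tested.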
